A study of Mus musculus with 6 samples.

Results

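Fibre type transcription factors are the DNA-binding proteins and cofactors that set whether a muscle fibre makes fast or slow contractile proteins. The 9 genes described here (Six4, Eya1, Eya4, Maf, Tbx15, Sox6, Prox1, Nfatc1 and Vgll2) were taken by name, and all 9 were found among the 43074 gene names of each table. They were measured by poly(A) RNA-seq in mouse soleus, a postural hindlimb muscle, in 3 libraries labelled StarD7 mKO and 3 libraries labelled WT. StarD7 is a lipid transfer protein that carries phosphatidylcholine to mitochondria. The labels do not spell out mKO, and the promoter or Cre line behind it, the deleted exons, strain, age and sex have no entry in the labels, so the cells that lost the gene cannot be stated. The series text gives 3 mice per group, but the labels do not tie a library to an animal, so p-values measure the spread between these libraries. The comparison asks whether the loss of fast fibre transcripts in mKO soleus came with a different level of a fibre type regulator.

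Adult fibres make 1 of several myosin heavy chains, from slow (Myh7) through IIa (Myh2) and IIx (Myh1) to IIb (Myh4), and a network of regulators decides which. SIX4 and related sine oculis homeodomain proteins bind DNA with EYA coactivators and turn on fast and glycolytic genes, large MAF proteins act on the IIb chain, TBX15 favours fast glycolytic fibres, and SOX6 represses slow genes. On the slow side, calcineurin moves NFATC1 into the nucleus in tonically active fibres, PROX1 is needed for the slow programme, and VGLL2 is a cofactor of TEAD proteins that supports slow fibre genes. These proteins are also controlled after transcription, by phosphorylation and by entry into the nucleus, which RNA levels do not show.

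Reads recovered from the values summed to 42928774 to 51287999 per library, over the genes that gave whole reads only. The targeted and contractile genes are given first. Stard7 stood at 21.8, 21.3 and 34.6 TPM in mKO replicates 1, 2 and 3, and at 87.5, 95.4 and 95 TPM in WT replicates 1, 2 and 3 (TPM is a level per gene length, scaled to a fixed sum in each library). Myh1 stood at 113, 82.7 and 635 TPM in mKO and at 3410, 3110 and 2500 TPM in WT. Myh4 stood at 10, 8.62 and 8.32 TPM in mKO and at 53.9, 530 and 635 TPM in WT. The mKO libraries thus lay below every WT library for both chains, mKO replicate 3 kept the most Myh1, and WT replicate 1 had the least Myh4 of its group. Slow Myh7 stood at 4150, 4280 and 2890 TPM in mKO and at 3530, 3250 and 2690 TPM in WT, with overlap. Fast IIa Myh2 stood at 4340, 4210 and 5660 TPM in mKO and at 4710, 6590 and 6600 TPM in WT, also with overlap. Stard7 fell (log2 fold change −1.83, SE 0.16, limma adjusted p = 0.00585), and 0 of the 4 adult myosin heavy chains passed the test. Myh1 (−4.03, SE 0.66, limma adjusted p = 0.0515) and Myh4 (−4.73, SE 0.81, adjusted p = 0.0576) were just over the threshold of 0.05. Myh2 was at −0.33 (SE 0.16, adjusted p = 0.527). Mitochondrially encoded genes took 46.8% to 48.9% of all TPM in mKO and 42.1% to 45.1% in WT, and since TPM has a fixed sum, a larger share there lowers every nuclear gene a little.

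None of the 9 factors passed the test. Limma-trend on log2(TPM + 1) over 12301 genes called 0 of 9 at an adjusted p under 0.05 (Benjamini-Hochberg), where 0.52% of all tested genes were called, 0.0976% higher and 0.423% lower. Limma-voom on reads recovered from TPM called 0 of the 8 factors it could test. Without adjustment, 4 of 9 factors had a p under 0.05 by limma-trend, against 10.7% of all tested genes. The same 4 factors of limma-trend had no overlap between groups: Eya4, Maf and Sox6 were lower in every mKO library than in any WT library, and Prox1 was higher. Groups did not overlap for 16.0% of all tested genes, 10.3% lower and 5.67% higher. In whole muscle, fewer cells that express a gene and less RNA per cell cannot be told apart.

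**Figure D1:**
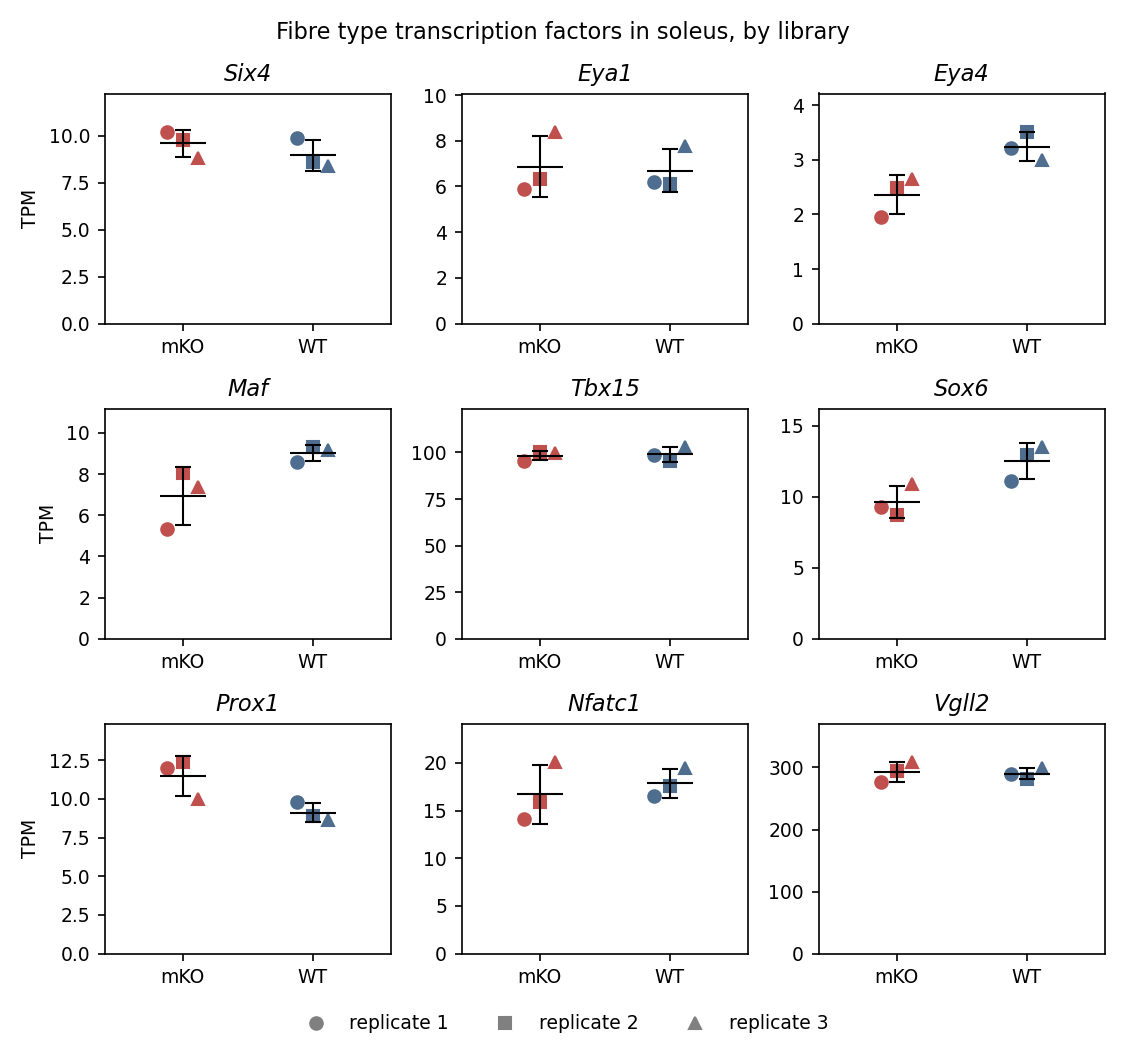
TPM of each factor (y axes start at 0) in the 3 mKO libraries, left in each panel, and the 3 WT libraries, right. Symbols give the replicate number, and bars give the mean and SD. Eya4, Maf and Sox6 lie lower in all mKO libraries, Prox1 lies higher, and the other factors overlap.

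Six4, a sine oculis homeodomain factor of fast and embryonic muscle genes, stood at 10.2, 9.76 and 8.82 TPM in mKO and at 9.87, 8.62 and 8.36 TPM in WT. The groups overlapped, and replicate 1 was the highest of both. Its log2 fold change, mKO minus WT, was 0.09 (95% interval −0.11 to 0.29, limma adjusted p = 0.775), and it was 0.21 with mitochondrially encoded genes left out of the TPM sum. That setting also moved the median of all tested genes from −0.01 to 0.09. The RefSeq table gave a promoter for 5 of the 9 factors (build GRCm38.p6, 250 bases before to 50 after a start). That of a Six4 start, chr12:73113196-73113495 on the minus strand, is shown because it holds the letters of MEF3, the motif bound by SIX4 and its relatives, in capitals, on its reverse strand at position −97 with the start at 0.
Six4: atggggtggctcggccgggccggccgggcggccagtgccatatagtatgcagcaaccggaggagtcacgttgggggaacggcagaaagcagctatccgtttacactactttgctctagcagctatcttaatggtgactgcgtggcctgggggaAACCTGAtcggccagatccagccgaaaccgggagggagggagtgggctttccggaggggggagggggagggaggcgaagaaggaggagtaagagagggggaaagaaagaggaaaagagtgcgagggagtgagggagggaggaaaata
MEF3, searched as TCAGGTT or AACCTGA, was present in 4.07% of 32851 mouse promoters of this length, and the match overlaps letters of the NFAT motif. A match is a description of letters, not a bound site.

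The EYA coactivators carry no DNA-binding domain and act through SIX4 and its relatives. Eya1 stood at 5.87, 6.34 and 8.39 TPM in mKO and at 6.19, 6.13 and 7.77 TPM in WT. Replicate 3 was the highest of both groups, and the groups overlapped. Eya1 had a log2 fold change of 0.03 (95% interval −0.29 to 0.34, limma adjusted p = 0.973), which took the other sign, −0.11, without mKO replicate 3. Eya4 was the lowest of the 9 factors in level, at 1.96, 2.48 and 2.65 TPM in mKO and at 3.22, 3.51 and 2.99 TPM in WT. All mKO libraries lay below all WT libraries, with mKO replicate 1 the lowest. Means were 2.36 ± 0.360 TPM in mKO and 3.24 ± 0.263 TPM in WT, so mKO stood at 73.0% of WT (SD, n = 3 each, exact two-sided permutation p = 0.1, the smallest that 3 against 3 allows). Its log2 fold change was −0.34 (95% interval −0.59 to −0.09, limma adjusted p = 0.302), so the difference did not hold up after adjustment over all genes. At such low TPM the added pseudocount shrinks the value, and with 0.1 in its place it was −0.45.

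Maf, the large MAF protein c-Maf, stood at 5.35, 8.04 and 7.39 TPM in mKO and at 8.60, 9.32 and 9.18 TPM in WT. The groups did not overlap, but mKO replicate 1 lay well apart from the other mKO libraries, and the SD was 1.40 TPM in mKO and 0.383 TPM in WT. The difference was −0.36 on the log2 scale (95% interval −0.65 to −0.06, limma adjusted p = 0.367), and −0.20 without mKO replicate 1. Macrophages also express Maf. All 10 macrophage markers were detected, with a sum of 121, 217 and 173 TPM in mKO replicates 1, 2 and 3 and of 150, 164 and 140 TPM in WT. In mKO the libraries had the same order by Maf and by these markers, while in WT replicate 1 had the least Maf and replicate 3 the least of the markers. The marker sums overlapped between groups, and the part of macrophages in the Maf values was not tested. Mafa, the paralogue also tied to IIb fibres, stood at 7.47, 3.91 and 5.37 TPM in mKO and at 11.2, 7.69 and 7.08 TPM in WT, with overlap (log2 fold change −0.57, SE 0.22, limma adjusted p = 0.405).

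Tbx15, a T-box factor of fast glycolytic fibres, was among the steadiest. It stood at 95.4, 100 and 99.6 TPM in mKO and at 98.6, 95.3 and 103 TPM in WT. Means were 98.5 ± 2.70 TPM in mKO and 99.1 ± 4.10 TPM in WT (SD, n = 3 each), with full overlap. For Tbx15 the log2 fold change was −0.01 with a 95% interval of −0.13 to 0.11 (limma adjusted p = 0.977), and it was 0.11 with mitochondrially encoded genes left out, where the median of all tested genes moved to 0.09.

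Sox6, the SOXD repressor of slow fibre genes, stood at 9.27, 8.70 and 10.9 TPM in mKO and at 11.1, 12.9 and 13.5 TPM in WT. The groups were separated by a narrow gap between mKO replicate 3 and WT replicate 1. Means were 9.63 ± 1.16 TPM in mKO and 12.5 ± 1.25 TPM in WT (SD, n = 3 each), so mKO stood at 76.9% of WT. Sox6 had a log2 fold change of −0.35 (95% interval −0.59 to −0.11), with the smallest p of the 9 factors and a limma adjusted p of 0.255. With mitochondrially encoded genes left out it was −0.25, and the groups then overlapped. Sox6os, a gene listed on the opposite strand, stood at 1.05 to 1.67 TPM in mKO and at 1.24 to 3.06 TPM in WT. The sources used here do not say whether counting used strand, so it is not known whether its reads and those of Sox6 were kept apart. A promoter of Sox6 and one of slow Myh7 are shown because both hold the SOX letters (AACAAT or ATTGTT) on both strands. Capitals mark these and, in the Sox6 window, the MEF3 letters. The Sox6 start is one of several, chr7:115824661-115824960 on the minus strand, and Myh7 is at chr14:54994577-54994876 on the minus strand (GRCm38.p6).
Sox6: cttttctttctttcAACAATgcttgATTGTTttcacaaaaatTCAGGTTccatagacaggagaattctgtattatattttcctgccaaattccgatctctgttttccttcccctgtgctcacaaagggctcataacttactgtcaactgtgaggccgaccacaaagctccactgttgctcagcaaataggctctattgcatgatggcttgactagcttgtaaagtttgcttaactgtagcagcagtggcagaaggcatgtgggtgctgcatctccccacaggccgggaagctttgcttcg
Myh7: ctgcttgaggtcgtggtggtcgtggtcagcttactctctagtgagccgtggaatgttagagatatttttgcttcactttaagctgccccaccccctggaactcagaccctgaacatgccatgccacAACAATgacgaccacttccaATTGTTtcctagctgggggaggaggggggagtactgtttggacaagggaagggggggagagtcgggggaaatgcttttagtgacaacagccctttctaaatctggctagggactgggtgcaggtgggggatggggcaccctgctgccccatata
The SOX letters stood at positions −236 and −225 of the Sox6 window and at −124 and −104 of the Myh7 window, where the second overlaps NFAT letters, and 10.7% of all promoters of this length hold them at least once. The MEF3 letters of the Sox6 window stood at −208. TEAD letters, not capitalised, were also in the Myh7 window, at −201.

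Prox1, the homeodomain factor needed for slow fibre identity, went the other way in value. It stood at 12.0, 12.4 and 9.99 TPM in mKO and at 9.83, 8.87 and 8.67 TPM in WT. Every mKO library lay above every WT library, but mKO replicate 3 cleared WT replicate 1 by little. Means were 11.5 ± 1.3 TPM in mKO and 9.12 ± 0.620 TPM in WT (SD, n = 3 each), so mKO stood at 126% of WT. Prox1 had a log2 fold change of 0.30 (95% interval 0.08 to 0.51, limma adjusted p = 0.296), and 0.42 with mitochondrially encoded genes left out (adjusted p = 0.107). Leaving them out also moved the median of all tested genes from −0.01 to 0.09. Lymphatic endothelium also expresses Prox1. All 6 of its markers were detected, and their sum ranged from 36.0 to 44.3 TPM in mKO and from 33.5 to 41.8 TPM in WT. Prox1os, listed on the opposite strand, stayed at or below 0.371 TPM in every library.

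Nfatc1, the calcineurin-controlled factor of the slow programme, stood at 14.1, 15.9 and 20.1 TPM in mKO and at 16.5, 17.6 and 19.5 TPM in WT. The mKO libraries spanned the whole WT range, with replicate 3 the highest of both groups. Nfatc1 had a log2 fold change of −0.10 (95% interval −0.39 to 0.18, limma adjusted p = 0.835), −0.24 without mKO replicate 3 and 0.0047 without mKO replicate 1. Vgll2, the most abundant of the 9, stood at 277, 294 and 309 TPM in mKO and at 289, 281 and 299 TPM in WT. The groups overlapped, and mKO held both the lowest and the highest library. Its log2 fold change was 0.02 with a 95% interval of −0.11 to 0.15 (limma adjusted p = 0.944). Vgll2 acts through TEAD proteins, whose motif (CATTCC or GGAATG) is in 14.7% of all promoters. It is shown in capitals for Mybpc2, fast myosin binding protein C, which fell in mKO, at chr7:44524620-44524919 on the minus strand (GRCm38.p6), where it stood at −62.
Mybpc2: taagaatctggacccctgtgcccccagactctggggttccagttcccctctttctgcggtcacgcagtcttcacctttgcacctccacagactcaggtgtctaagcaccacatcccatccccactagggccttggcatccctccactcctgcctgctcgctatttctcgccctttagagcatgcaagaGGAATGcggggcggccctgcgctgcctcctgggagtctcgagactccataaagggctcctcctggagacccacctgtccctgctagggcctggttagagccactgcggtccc
Of the 12 fibre genes looked up (the adult myosins and the called genes of the lists of fast and slow fibre genes), 9 had a promoter in the table. The MEF3 letters (in 4.07% of all promoters), the MAF letters (TGCTGAC or GTCAGCA, in 4.67%) and the T-box letters (GGTGTGA or TCACACC, in 3.98%) were in none of their windows. At these shares an absence from so few windows is not unusual, and windows of 300 bases leave out sequence further away. The absence is thus a description of letters, not of binding. The NFAT letters (GGAAA or TTTCC) are in 61.3% of all promoters. Besides Mybpc2, TEAD letters were in windows of Myh1 (−16), Myh4 (−231) and slow Myh7 (−201). SOX letters were also in the window of fast Myh2 (−10).

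**Figure D2:**
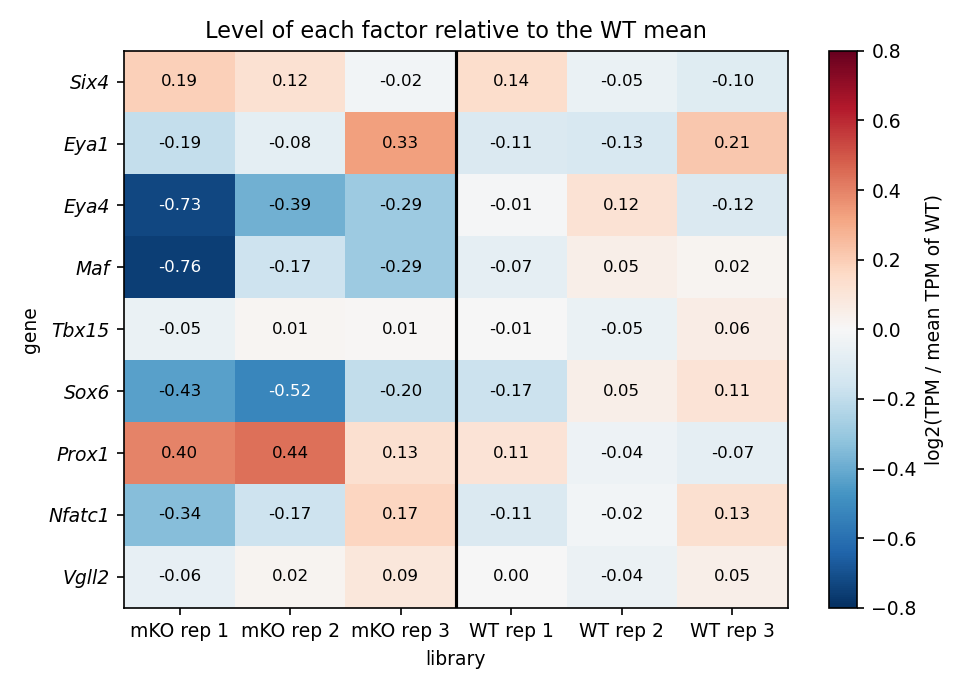
log2 of each factor's TPM over its WT mean, by library (columns, mKO left of the line) and factor (rows). The 3 mKO columns are below 0 for Eya4, Maf and Sox6 and above 0 for Prox1, with mKO replicate 1 the lowest for Maf at −0.76.

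**Figure D3:**
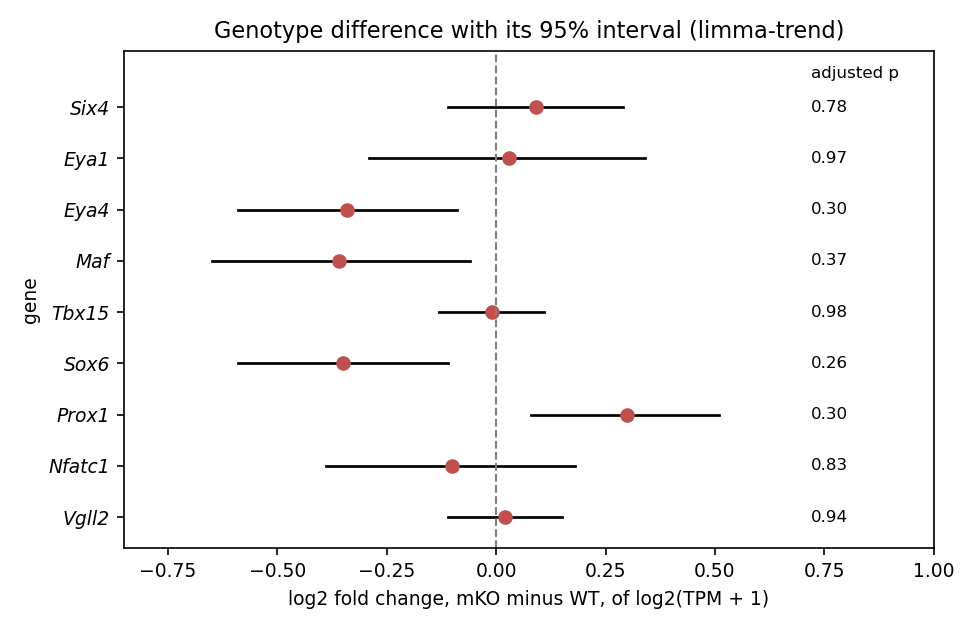
Points give the log2 fold change of each factor (x axis, mKO minus WT, in log2(TPM + 1)), lines its 95% interval from limma-trend, and figures on the right the adjusted p. The intervals of Eya4, Maf, Sox6 and Prox1 leave out 0 before adjustment, and no adjusted p is under 0.05.

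By level, a comparison per gene length, the order in mKO was Vgll2, Tbx15, Nfatc1, Prox1, Sox6, Six4, Maf, Eya1 and Eya4. In WT it was Vgll2, Tbx15, Nfatc1, Sox6, Prox1, Maf, Six4, Eya1 and Eya4. Prox1 overlapped Sox6, Sox6 overlapped Six4, and Maf overlapped Eya1 among the mKO libraries. Prox1 overlapped Maf, and Maf overlapped Six4, among the WT libraries. Other neighbours in each order were apart in all libraries of the group. In percentiles of mean TPM among tested genes, Vgll2 stood at 97.9, Tbx15 at 94.2, Sox6 at 57.8 and Eya4 at 20.1. The spread between libraries (the SD over the mean) was larger in mKO for 7 of 9 factors, against 53.5% of all tested genes.

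Ratios of factors within a library do not depend on the TPM sum. Of the 36 pairs of factors, 16 had ratios without overlap between groups, Sox6 to Prox1 among them. All of these but Eya1 to Nfatc1 held Eya4, Maf, Sox6 or Prox1, whose own groups did not overlap. Pairs share factors, and the share among pairs of all tested genes was not taken, so the count is a description. The ratio of Sox6 to Prox1 was 0.773, 0.700 and 1.09 in mKO and 1.13, 1.46 and 1.56 in WT, a ratio singled out after its values were seen and given without a test. Sox6 was thus the lower of the pair in mKO replicates 1 and 2 and the higher in the other 4 libraries.

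Within each group, the order of the 3 libraries by Prox1 was their order by slow Myh7, and by Sox6 it was the reverse. In mKO, replicate 3 had the least Myh7, the least Prox1 and the most Sox6. In WT, replicate 1 had the most Myh7, the most Prox1 and the least Sox6. Of all tested genes, 7.97% followed Myh7 in this way in both groups and 1.81% ran opposite in both, as Myh2 did. This order was noticed after the values were seen and is a description. The other 7 factors did neither.

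The relatives of the factors and the rest of their pathways, 90 genes on lists chosen with earlier results of these data known, are given as counts beside those of all tested genes. Of the 83 past the filter on low values, 0 rose and 2 fell (0.0976% and 0.423% of all tested genes), with a median log2 fold change of −0.05 beside −0.01 for all tested genes. Groups did not overlap for 24.1% of them, 6 higher and 14 lower, against 16.0% of all tested genes. The falls were of Myoz1 and Camk2a. Myoz1, a Z-disc calsarcin that restrains calcineurin and belongs to fast fibres, stood at 209, 184 and 290 TPM in mKO and at 479, 492 and 487 TPM in WT (log2 fold change −1.12, SE 0.14, limma adjusted p = 0.0253). Camk2a, a gene of the CaMKII family of calcium-dependent kinases, stood at 23.5, 22.5 and 22.6 TPM in mKO and at 32.8, 33.5 and 31.0 TPM in WT (−0.49, SE 0.06, limma adjusted p = 0.0188). These values are per gene and do not separate its transcripts.

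In the lists by family, which count the factors too, 0 of 9 sine oculis, EYA and DACH genes tested were called, with a median of 0.03. Eya3, at 10.1 ± 0.270 TPM in mKO and 9.62 ± 0.410 TPM in WT (SD, n = 3 each), was the EYA gene with the highest mean. Among calcineurin and NFAT genes, 1 of 18 tested fell (Myoz1), with a median of −0.02. Rcan1, a target and inhibitor of calcineurin, stood at 273 ± 42.5 TPM in mKO and 266 ± 32.7 TPM in WT, all transcripts of the gene together (log2 fold change 0.03, limma adjusted p = 0.958). Myoz3, another calsarcin of fast fibres, had a log2 fold change of −1.63 that did not pass (SE 0.31, limma adjusted p = 0.087).

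Among MEF2, class II deacetylase and CaMKII genes, 1 of 14 tested fell (Camk2a), with a median of −0.08. Among TEAD, VGLL and YAP genes, 0 of 9 were called, with a median of 0.06. Yap1, a coactivator that competes for TEAD, had a log2 fold change of 0.42 (SE 0.12, limma adjusted p = 0.239) and Tead4 of −0.29 (SE 0.09, adjusted p = 0.263). Of 6 MAF genes tested 0 were called (median −0.22), and of 8 SOXD, PROX and T-box genes 0 were called (median −0.07). Of 32 other regulators tested 0 were called, with a median of −0.05. The largest values there were −0.62 for Nos1, neuronal nitric oxide synthase of the fibre membrane (SE 0.18, limma adjusted p = 0.258), and 0.46 for Myod1, the myogenic factor of fast fibres (SE 0.28, adjusted p = 0.629).

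**Figure D4:**
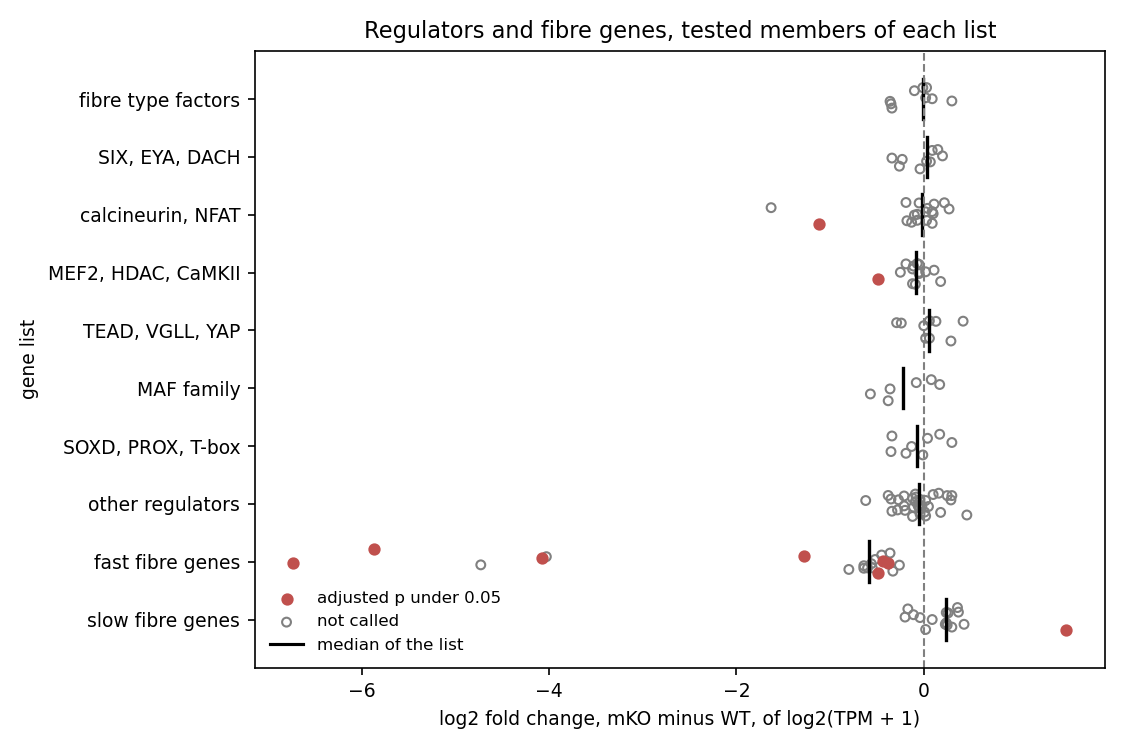
log2 fold change (x axis, mKO minus WT, in log2(TPM + 1)) of the tested genes of each list (rows), with filled points for an adjusted p under 0.05 and a line at the median. Medians of the regulator lists run from −0.22 (MAF family) to 0.06 (TEAD, VGLL, YAP). The calcineurin list also holds Myoz1 at −1.12 and Myoz3 at −1.63. Fast fibre genes lie below 0 with a median of −0.58, and slow fibre genes have a median of 0.24.

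The lists of contractile and metabolic target genes held more calls, but they were chosen with earlier results of these data known. Their counts are therefore a description, not a test. Of all tested genes, 0.0976% were called higher and 0.423% lower, and 5.67% were higher and 10.3% lower without overlap. Of 20 fast fibre genes that sine oculis and EYA proteins or the fast programme are known to use, 7 fell and 0 rose, with a median of −0.58. The groups did not overlap for 19 of the 20, and only Myh2 overlapped. Among those that fell, the largest changes were of Mybpc2 (−6.73), Pvalb (−5.87), Actn3 (−4.08) and Gpd1 (−1.28), with limma adjusted p-values from 8.37e-06 to 0.00466. Of 16 slow fibre genes that SOX6 is known to repress or that mark slow fibres, 1 rose, Pln, at 14.6, 15.0 and 13.1 TPM in mKO and at 4.91, 4.05 and 3.94 TPM in WT (1.52, SE 0.09, limma adjusted p = 0.000742). The median of the slow list was 0.24, with 12 of 16 above 0, and the groups did not overlap for 1 gene that was higher (Pln) and 1 that was lower in mKO (Mybpc1, slow myosin binding protein C). Casq2, the slow and cardiac calsequestrin, was at 0.37 (SE 0.14, adjusted p = 0.397). Myl2, the slow light chain, was at 0.43 (SE 0.19, adjusted p = 0.474). Mybpc1 was at −0.20 (SE 0.06, adjusted p = 0.233). None of these 3 passed.

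Each factor's pattern over the 6 libraries was also set against the other tested genes at a mean of 5 TPM or more. Genes with predicted, Rik or clone-type names were left out, and Pearson's r of log2(TPM + 1) was the measure of likeness. These r include the difference between groups and rest on 6 libraries, and they are given as a description with no p. Sox6 ran most like Acsl4 (r = 0.999) and Slc25a12 (0.996), and 67 genes of 7707 reached 0.95 or more. That count was 62 for Eya4, 46 for Maf, 39 for Prox1 and, at the fewest, 4 for Tbx15. Prox1 ran most like Slc4a3 (0.995) and Chrna1 (0.994), the acetylcholine receptor alpha subunit. Eya4 ran most like Cnot7 (0.994) and Mef2a (0.989), and Maf like Pla1a (0.997) and Abcc5 (0.996). The nearest genes were Vps33a (0.982) and Dip2c (0.979) for Six4, Dmac2 (0.974) and Metrnl (0.970) for Eya1, and Hspa1a (0.993) and Sar1a (0.979) for Tbx15. They were Tmem170b (0.997) and Acvrl1 (0.981) for Nfatc1, and Phaf1 (0.991) and Hira (0.981) for Vgll2.

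Markers of other cell types that the muscle could hold did not separate the groups in their summed level. Besides macrophages and lymphatic endothelium, the sums ranged from 258 to 274 TPM in mKO and from 259 to 282 TPM in WT for 8 blood endothelial markers. They ranged from 26.8 to 33.2 TPM in mKO and from 28.2 to 31.9 TPM in WT for 6 satellite cell markers, cells in which Eya1 and Six4 are also known to act. For 8 fibroblast markers the ranges were 582 to 878 TPM in mKO and 696 to 805 TPM in WT, for 6 adipocyte markers 113 to 171 TPM in mKO and 110 to 247 TPM in WT, and for 6 Schwann cell markers 35.1 to 51.4 TPM in mKO and 40.6 to 59.4 TPM in WT. For 5 erythroid markers they were 560 to 1250 TPM in mKO and 896 to 1190 TPM in WT. No marker of these lists was under 0.1 TPM in all libraries, and their part in the factors' values was not tested.

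**Figure D5:**
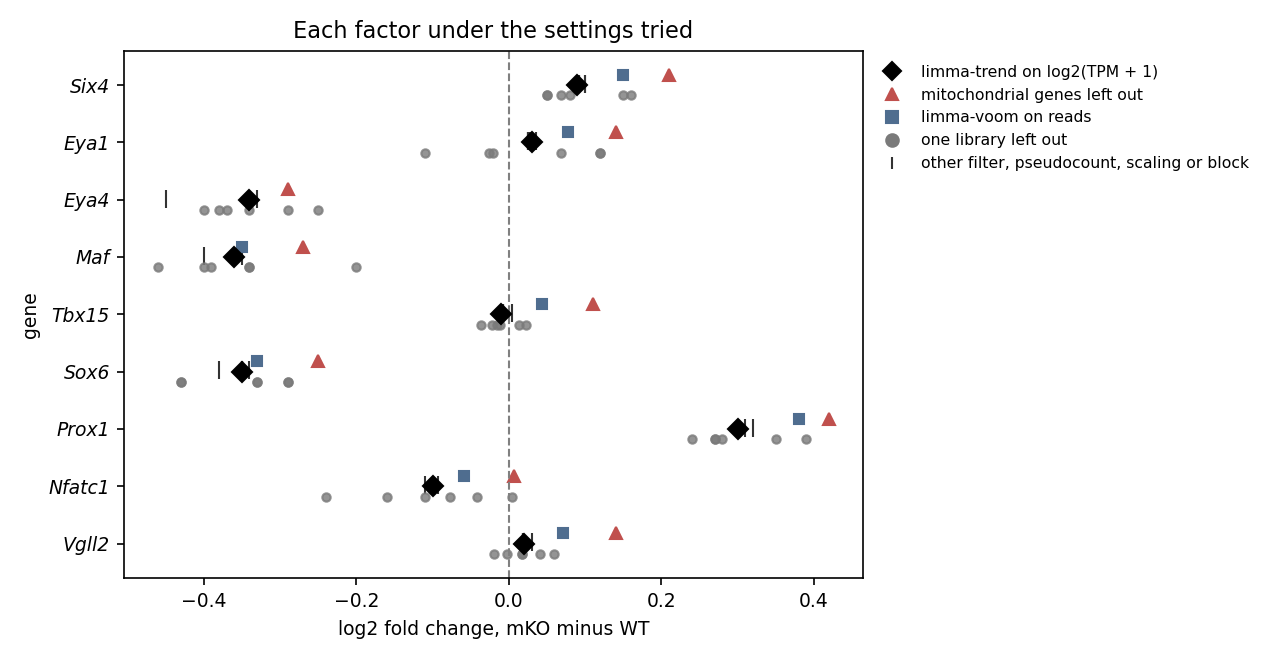
log2 fold change of each factor (x axis, mKO minus WT) under the main settings (diamonds) and the alternatives (other symbols, named in the legend). Eya4, Maf and Sox6 stay below 0 and Prox1 and Six4 above 0 in all of them, while Eya1, Tbx15, Nfatc1 and Vgll2 fall on both sides of 0.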

How the data were processed

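Each library has its own deposited table of gene TPM (per the file headers), a level corrected for gene length and library total. The submitters' processing notes name GRCm39. The aligner, the counting tool and its strand setting are not given in the sources used here. Per the labels' protocols, poly(A) RNA went into a directional library kit. The titles gave group and replicate number.

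The 9 factors, the gene lists and the motifs were chosen with earlier results of these data known. The test was limma-trend (R 4.3.3, package limma 3.58.1) of mKO against WT on log2(TPM + 1). It took the 12301 genes with 3 or more libraries at 1 TPM or above, which include all 9 factors, and p-values were adjusted over all of them (Benjamini-Hochberg, threshold 0.05). Fold changes on this scale understate those of genes at low TPM. Beside the factors, named genes were the called genes of each list (up to 4), with none called up to 2 of the largest, relatives of the factors, and the 2 genes most like each factor. Myoz3, Casq2, Myl2 and Mybpc1 were picked from the lists after their values were seen, and Rcan1 was also named outside this rule. Aldoa was read from its expressed numbered entry.

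Depth came from the values: TPM times the exon length in GENCODE M21 and a scale per library gave whole reads, within 0.05 reads, for 93.12% of 22734 genes. These genes summed to 42928774 to 51287999 reads per library, so the full depth was larger. Eya4 gave no whole reads. The other 8 factors had from 903 (Maf) to 11019 (Vgll2) reads in a library, which set the counting error if each was counted independently. Of the recovered values above 0, 58.55% were even, and the reason was not tested. Replicates of a group differed by more than counting error, with a chi-square per degree of freedom of 19.6 to 37.6 over genes. Limma-voom was run on these reads as an alternative. The fit was tested on simulated data. Promoters are RefSeq sequences of GRCm38.p6, matched by symbol. The build of the tables differs, so no coordinates were joined to the values. Some genes of the lists are not reported here by name.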

Additional observations from a re-analysis of the deposited data

How the results depend on the processing

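The number of factors called was 0 under all 13 alternatives. Eya4, Maf, Sox6, Prox1 and Six4 kept their sign in each that tested them, with lowest adjusted p-values of 0.222, 0.249, 0.138, 0.107 and 0.243. Eya4 ranged from −0.45 to −0.25, Maf from −0.46 to −0.20, Sox6 from −0.43 to −0.25, Prox1 from 0.24 to 0.42 and Six4 from 0.05 to 0.21. Tbx15 changed sign at 0.11 without mitochondrially encoded genes, 0.0041 with median-of-ratios scaling and 0.044 by limma-voom, and Nfatc1 at 0.0072 without mitochondrially encoded genes and at 0.0047 without mKO replicate 1. With 1 library left out, Eya1 ranged from −0.11 to 0.12, Tbx15 from −0.036 to 0.023, Nfatc1 from −0.24 to 0.0047 and Vgll2 from −0.02 to 0.059. The signs turned for Eya1 without mKO replicate 3 (−0.11) or WT replicate 1 or 2 (−0.021, −0.026), for Tbx15 without mKO replicate 1 (0.014) or WT replicate 3 (0.023), and for Vgll2 without mKO replicate 3 (−0.02) or WT replicate 2 (−0.0018). The number of factors without overlap, 4, was 3 under median-of-ratios scaling (17.1% of all tested genes) or without mitochondrially encoded genes (27.5%), where Sox6 overlapped. It was 2 of 8 by recovered reads scaled to their sum in each library (17.5%). These comparisons were added after seeing the data. Of all genes, 64 were called, 12 higher and 52 lower. This was 6 (2 and 4) with no filter, 41 (20 and 21) without mitochondrially encoded genes, and 92 (35 and 57) by limma-voom, and the cause was not tested. Leaving out a library gave 4 to 97 calls, 1 to 21 higher and 3 to 76 lower, with the fewest without WT replicate 2 and the most without mKO replicate 3. The replicate numbers were not shown to pair libraries: same-numbered deviations correlated at 0.095, 0.0474 and 0.131, although each library correlated best with its own number. With the replicate number as a block, 21 genes were called, 5 higher and 16 lower.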
